A study of Homo sapiens with 4 samples.

Results

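Aminoacyl-tRNA synthetases join each amino acid to its tRNA, and the genes described here encode the cytosolic and the mitochondrial sets of these enzymes in A549 cells. The set holds 35 genes, 19 for cytosolic and 16 for mitochondrial enzymes, chosen by name with earlier results of these data known. Probes were assigned to them through the RefSeq accession that the array lists for each probe, with control spots removed. This gave 38 probes for 34 of the 35 genes, out of 22439 genes with a matched probe, and no probe was matched to *FARSB*, which encodes the second subunit of the cytosolic phenylalanine enzyme. All 38 probes were well above background on all 4 arrays, so no level below is a bound.

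The A549 line was established from a human lung adenocarcinoma. RNA was hybridized to 4 Agilent arrays of the one-color kind, read in the Cy3 channel. The array of cells given *miR-486-5p* is called the 5p array and that of cells given *miR-486-3p* the 3p array. On the other 2 arrays, labeled mock 1 and mock 2, the cells had received the transfection reagent without a miRNA. All cells were grown in RPMI medium and went through the same Lipofectamine RNAiMAX procedure. Each strand of the miRNA was measured on a single array, and nothing in the labels says whether the mock arrays came from separate cultures, so p-values measure only the spread between these arrays. The epithelial keratin genes *KRT8*, *KRT18* and *KRT7* and the A549 marker gene *NQO1* were well above background on all 4 arrays. The A549 marker gene *ALDH1A1* was so with 1 of its 2 probes, *EPCAM* on 2 arrays, *AKR1B10* on 1, and *CDH1*, which encodes E-cadherin, on none. In log2 relative to the 75th percentile of the array, *ALDH1A1* reached −3.48 at most, below the highest level of *PTPRC*, a marker of another cell type (−1.01). Of 7 marker genes of other cell types, *PTPRC*, *CD3E*, *VWF* and *SFTPC* had a probe above background on all 4 arrays, *COL1A1* on 2, and *PECAM1* and *COL1A2* on none. Before any scaling, the summed linear signal of their 14 probes was 117 on the 3p array and 130.4 on the 5p array. On mock 1 and mock 2 it was 114.2 and 114.1. The 75th percentile of the signal, used for scaling below, was 93.1 (3p), 104.6 (5p), 114.1 (mock 1) and 114.3 (mock 2). The part of these markers in the results was not tested.

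The synthetases fall into class I and class II by the fold of the catalytic domain. In the human cytosol, several of them, including the fused glutamate and proline enzyme *EPRS1*, are held in the multisynthetase complex by the scaffold proteins *AIMP1*, *AIMP2* and *EEF1E1*, while others act free of it. Mitochondria use their own enzymes, encoded in the nucleus, except that *GARS1* and *KARS1* serve both compartments and mitochondrial glutaminyl-tRNA is made by an amidotransferase instead of a dedicated synthetase. Many cytosolic synthetase genes are known targets of *ATF4*, the transcription factor that is translated when amino acids run short, and *ATF4* binds with C/EBP partners to a composite element.

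The composite element, searched as TGATGNAA on both strands where N is any base, is shown because the genes that carried it were all lower after the 3p strand. Promoter sequences were those of RefSeq on GRCh38.p14, from 250 bases before to 50 bases after the transcription start. Of 27305 promoters, 1003 held the element (3.67%). It was present in 6 of 16 cytosolic synthetase promoters (37.5%) and in 1 of 14 mitochondrial ones (7.14%). The following 24-base windows are read 5′ to 3′ on the strand of the gene (plus for *MARS1* and *TARS1*, minus for the others), and capitals mark the element or its reverse complement.
AARS1, chr16:70289678-70289701: tctcgcagTTGCATCAgccaagtt
CARS1, chr11:3057410-3057433: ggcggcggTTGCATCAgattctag
IARS1, chr9:92293695-92293718: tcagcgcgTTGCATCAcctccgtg
MARS1, chr12:57488056-57488079: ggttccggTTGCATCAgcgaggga
NARS1, chr18:57621807-57621830: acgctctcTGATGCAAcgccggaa
TARS1, chr5:33440959-33440982: cctttcgaTTGCATCAgctggtcc
YARS2, chr12:32756079-32756102: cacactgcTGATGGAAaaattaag
All 6 cytosolic windows held the form TGATGCAA on either strand, a form found in 252 of all promoters (0.923%). The mitochondrial tyrosine enzyme gene *YARS2* held the form TGATGGAA. A match is a description of letters and not a measured binding site, and no window was read for *LARS1*, *VARS1*, *YARS1*, *AARS2* and *VARS2*.

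Values below are log2 signals relative to the 75th percentile of the same array, and a difference is a transfected array's value less the mock mean. A gene was called when limma, fitted to all 4 arrays and to the 33498 probes that passed the filter on dim signal (well above background throughout at least 1 group), gave at least 1 of its probes a Benjamini-Hochberg adjusted p under 0.05 in the direction of its mean. The only residual degree of freedom lies between the mock arrays, and the fit takes the spread of a transfected array to equal theirs. The mock arrays differed by a median of 0.05 over the 34 genes, and by 0.35 at most, for *MARS2*. Both comparisons use the same mock arrays and are not independent of each other.

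After transfection of the 3p strand, most synthetase genes were lower than in mock cells, and *AARS1*, which encodes the cytosolic alanine enzyme, was the lowest of them. Of the 18 cytosolic genes, 11 were called lower and 1 higher by limma, and of the 16 mitochondrial genes, 8 were called lower and 1 higher. Over all 16662 genes tested, 30.8% were called lower and 31.3% higher. The median difference was −0.64 for the cytosolic genes and −0.36 for the mitochondrial genes, beside 0.06 for all genes. Past a difference of 0.5 there were 10 cytosolic genes lower and 1 higher, and 7 mitochondrial genes lower and 1 higher, beside 27.2% lower and 30.4% higher among all genes. Whether cytosolic and mitochondrial genes differ in these shares was not tested. The calls rest on limma's pooled spread: with the Student comparison named in the study's methods and Benjamini-Hochberg adjustment, 0 genes passed, and without adjustment 9 cytosolic and 10 mitochondrial genes did, where 41.7% of all genes did.

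**Figure D1:**
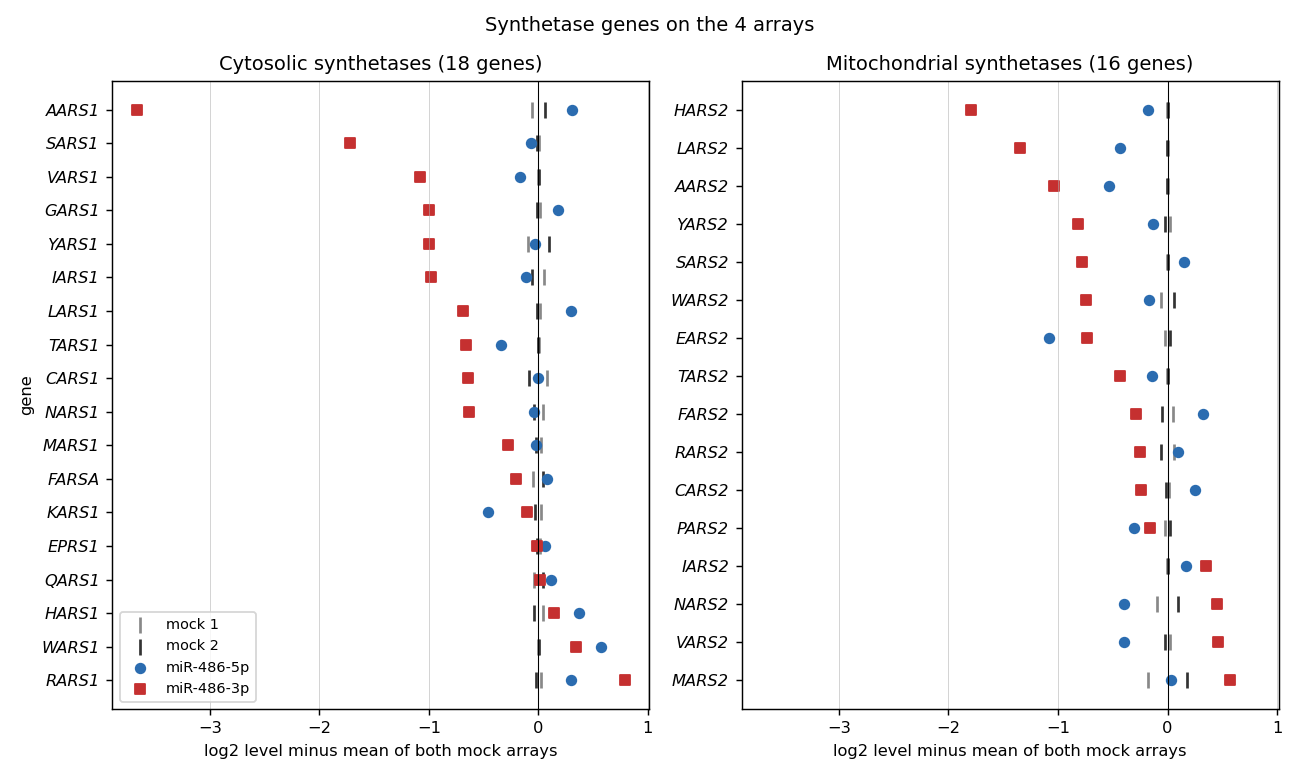
Each synthetase gene on the 4 arrays, as log2 level minus the mean of both mock arrays, with cytosolic genes on the left and mitochondrial genes on the right in the order of their 3p difference. Ticks are the mock arrays, circles the 5p array and squares the 3p array (1 array each); AARS1 at −3.67 and HARS2 at −1.80 lie farthest from the mock ticks.

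The cytosolic enzymes that act outside the complex held the largest fall, that of *AARS1*. The group was drawn up after the values were known and is a description: 8 of its 11 measured genes were called lower, with a median of −0.66, where 30.8% of all genes were called lower. Its 3 genes that were not called were *FARSA*, *HARS1* and *WARS1*. *AARS1* stood at −1.73 on the 3p array, against 1.88 and 2.00 on the mock arrays and 2.25 on the 5p array. Its difference was −3.67 (SE 0.105, limma adjusted p = 0.00762), so the 3p array held 7.88% of the mock signal. The *AARS1* value of the 3p array was far below the other 3, and under normexp background correction the difference was −2.32, still the lowest of the set.

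*SARS1*, which encodes the cytosolic serine enzyme, had 2 probes that fell by different amounts. The probe for the coding transcript read 5.08 on the 3p array, 5.86 and 5.82 on the mock arrays and 5.50 on the 5p array, a 3p difference of −0.76 (SE 0.0897, limma adjusted p = 0.0167). The probe listed for a noncoding *SARS1* transcript read −0.88 on the 3p array, 1.80 on each mock array and 2.01 on the 5p array, a difference of −2.68 (SE 0.0873, limma adjusted p = 0.00762). Both probes were called lower, and the mean of −1.72 lies between 2 readings that disagree in size.

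*VARS1*, which encodes the cytosolic valine enzyme, was 3.71 on the 3p array, 4.61 on the 5p array and 4.78 and 4.79 on the mock arrays, a difference of −1.08 (SE 0.0873, limma adjusted p = 0.0105). *NARS1*, the cytosolic asparagine enzyme, was 3.99 on the 3p array, 4.59 on the 5p array and 4.67 and 4.59 on the mock arrays, a difference of −0.64 (SE 0.0961, limma adjusted p = 0.0244). Both genes were lowest on the 3p array. The other 4 called lower were *TARS1* (threonine) at −0.66, *CARS1* (cysteine) at −0.64, *YARS1* (tyrosine) at −0.999 and *GARS1* (glycine) at −1.003. The *CARS1* and *YARS1* calls were lost when dim probes were kept in the fit.

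Of the 3 genes outside the complex that were not called, *WARS1* and *HARS1* lay above both mock arrays and *FARSA* below both. *WARS1*, the cytosolic tryptophan enzyme and a gene induced by interferon gamma, was 4.02 on the 3p array, 4.24 on the 5p array and 3.67 and 3.68 on the mock arrays. Its 3p difference of 0.35 (SE 0.0876) did not pass limma (adjusted p = 0.0606), and it was called higher in 6 of 9 alternative limma settings but turned to −0.03 when arrays were scaled to their median. *FARSA*, a subunit of the cytosolic phenylalanine enzyme, was 2.79 on the 3p array, 3.08 on the 5p array and 2.95 and 3.04 on the mock arrays, a difference of −0.21 (SE 0.100, limma adjusted p = 0.187). It was called lower in 3 of 9 alternative limma settings.

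Of the enzymes of the multisynthetase complex, 3 of 7 were called lower (*IARS1*, *LARS1* and *MARS1*), 1 higher (*RARS1*), and *EPRS1*, *KARS1* and *QARS1* were not called, with a median of −0.10, beside 30.8% called lower and 31.3% higher among all genes. *IARS1*, the cytosolic isoleucine enzyme, had 3 probes with 3p differences of −1.07, −0.91 and −0.96, each called lower, and a mean level of 2.13 on the 3p array, 3.00 on the 5p array and 3.17 and 3.06 on the mock arrays. *LARS1*, the cytosolic leucine enzyme, was 2.75 on the 3p array, 3.74 on the 5p array and 3.45 and 3.43 on the mock arrays, a difference of −0.69 (SE 0.0880, limma adjusted p = 0.0188). These 2 genes were below both mock arrays after the 3p strand.

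*RARS1*, the cytosolic arginine enzyme, was the only synthetase of the cytosol called higher. It was 6.95 on the 3p array, 6.45 on the 5p array and 6.17 and 6.13 on the mock arrays, a difference of 0.79 (SE 0.0898, limma adjusted p = 0.0159). Both transfected arrays were above both mock arrays, and with median scaling the 3p difference was 0.42 and was not called.

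*MARS1*, the cytosolic methionine enzyme, had 2 probes that did not move alike. The probe with the higher signal gave −0.57 (SE 0.0967, limma adjusted p = 0.0302) and the other gave 0.00 (SE 0.0874, limma adjusted p = 0.972), and the mean level was 2.52 on the 3p array, 2.77 on the 5p array and 2.82 and 2.78 on the mock arrays. The mean difference was −0.28, and the call was lost in 4 of 9 alternative limma settings.

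The remaining 3 enzymes of the complex stayed near the mock level after the 3p strand, and each changed sign under another scaling. *KARS1*, the lysine enzyme of both compartments, was 5.03 on the 3p array, 4.67 on the 5p array and 5.16 and 5.11 on the mock arrays. *EPRS1* was 4.92 on the 3p array, 4.99 on the 5p array and 4.95 and 4.91 on the mock arrays. *QARS1*, the glutamine enzyme, had a 3p difference of 0.01.

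Among the mitochondrial enzymes, *HARS2*, the mitochondrial histidine enzyme, was lowest after the 3p strand. It was 0.74 on the 3p array, 2.37 on the 5p array and 2.54 on each mock array, a difference of −1.80 (SE 0.0873, limma adjusted p = 0.00762). *HARS1*, the cytosolic histidine enzyme, lies head to head with it on chromosome 5, with starts 85 bases apart. *HARS1* was 4.60 on the 3p array, 4.82 on the 5p array and 4.49 and 4.41 on the mock arrays, a difference of 0.15 (SE 0.0964, limma adjusted p = 0.290), which was −0.23 under median scaling. The neighbors thus differed by 1.94 after the 3p strand on the log2 scale.

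*LARS2*, the mitochondrial leucine enzyme, was −0.10 on the 3p array, 0.82 on the 5p array and 1.25 on each mock array, a difference of −1.35 (SE 0.0873, limma adjusted p = 0.00873). *AARS2*, the mitochondrial alanine enzyme, was 1.71 on the 3p array, 2.21 on the 5p array and 2.75 on each mock array, a difference of −1.04 (SE 0.0874, limma adjusted p = 0.0110). Both genes were below the mock arrays on both transfected arrays. *SARS2*, the mitochondrial serine enzyme, was 1.18 on the 3p array, 2.11 on the 5p array and 1.96 and 1.97 on the mock arrays, a difference of −0.78 (SE 0.0874, limma adjusted p = 0.0157). *WARS2*, the mitochondrial tryptophan enzyme, was 0.41 on the 3p array, 0.98 on the 5p array and 1.099 and 1.21 on the mock arrays, a difference of −0.74 (SE 0.105, limma adjusted p = 0.0220). The remaining 3 called lower were *YARS2* at −0.82, *EARS2* (glutamate) at −0.73 and *TARS2* (threonine) at −0.43. The *WARS2* call was lost when dim probes were kept in the fit, and the *TARS2* call was lost under quantile normalization.

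*VARS2*, the mitochondrial valine enzyme, moved the other way. It was 4.54 on the 3p array, 3.69 on the 5p array and 4.10 and 4.06 on the mock arrays, a 3p difference of 0.46 (SE 0.0898, limma adjusted p = 0.0381). Its call was lost with median scaling, at 0.08, and when dim probes were kept in the fit.

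The other 7 mitochondrial genes were not called after the 3p strand. *MARS2* (methionine) was −3.05 on the 3p array, −3.59 on the 5p array and −3.80 and −3.45 on the mock arrays, and its difference of 0.57 (SE 0.204, limma adjusted p = 0.112) rests on the mock arrays that differed most. *NARS2* (asparagine) was 0.66 on the 3p array, −0.19 on the 5p array and 0.12 and 0.30 on the mock arrays. *IARS2* (isoleucine) was 4.11 on the 3p array, 3.93 on the 5p array and 3.76 and 3.77 on the mock arrays. These 3 genes were above both mock arrays after the 3p strand, with *NARS2* called higher in 4 and *IARS2* in 6 of 9 alternative limma settings, while *IARS2* turned to −0.03 under median scaling. *FARS2* (phenylalanine) was −0.20 on the 3p array, 0.41 on the 5p array and 0.14 and 0.04 on the mock arrays. *RARS2* (arginine) was 5.00 on the 3p array, 5.35 on the 5p array and 5.31 and 5.20 on the mock arrays. *FARS2* and *RARS2* were below both mock arrays after the 3p strand, with differences of −0.29 and −0.25. Each was called lower in 3 of 9 alternative limma settings. *CARS2* (cysteine) and *PARS2* (proline) had differences of −0.24 and −0.16, with *CARS2* called lower in 3 and *PARS2* in 1 of 9 alternative limma settings.

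Cytosolic and mitochondrial enzymes can be paired by amino acid, which gave 16 pairs, with *EPRS1* paired to both *EARS2* and *PARS2*. After the 3p strand, 5 pairs had both genes called lower (alanine, leucine, serine, threonine and tyrosine). Only the cytosolic gene was called in 5 pairs, of which the arginine pair was called higher, and only the mitochondrial gene in 3. The valine pair was called in opposite directions, and the phenylalanine and proline pairs held no call. Among all genes, 30.8% were called lower and 31.3% higher, and whether the pair counts depart from these shares was not tested. The cytosolic difference was below the mitochondrial one in 9 pairs and above it in 7. The gap was widest for alanine, where *AARS1* minus *AARS2* was −2.63, although both were called lower, and next for histidine. The median absolute gap was 0.899 after the 3p strand and 0.263 after the 5p strand. Differences were also wider among all genes after the 3p strand. Past 0.5, 27.2% were lower and 30.4% higher, against 15.9% and 13.8% after the 5p strand. Gaps between other pairs of genes were not computed, so the wider gap is not shown to be particular to these pairs. The fits give no test of a gap between 2 probes, so none is given.

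**Figure D2:**
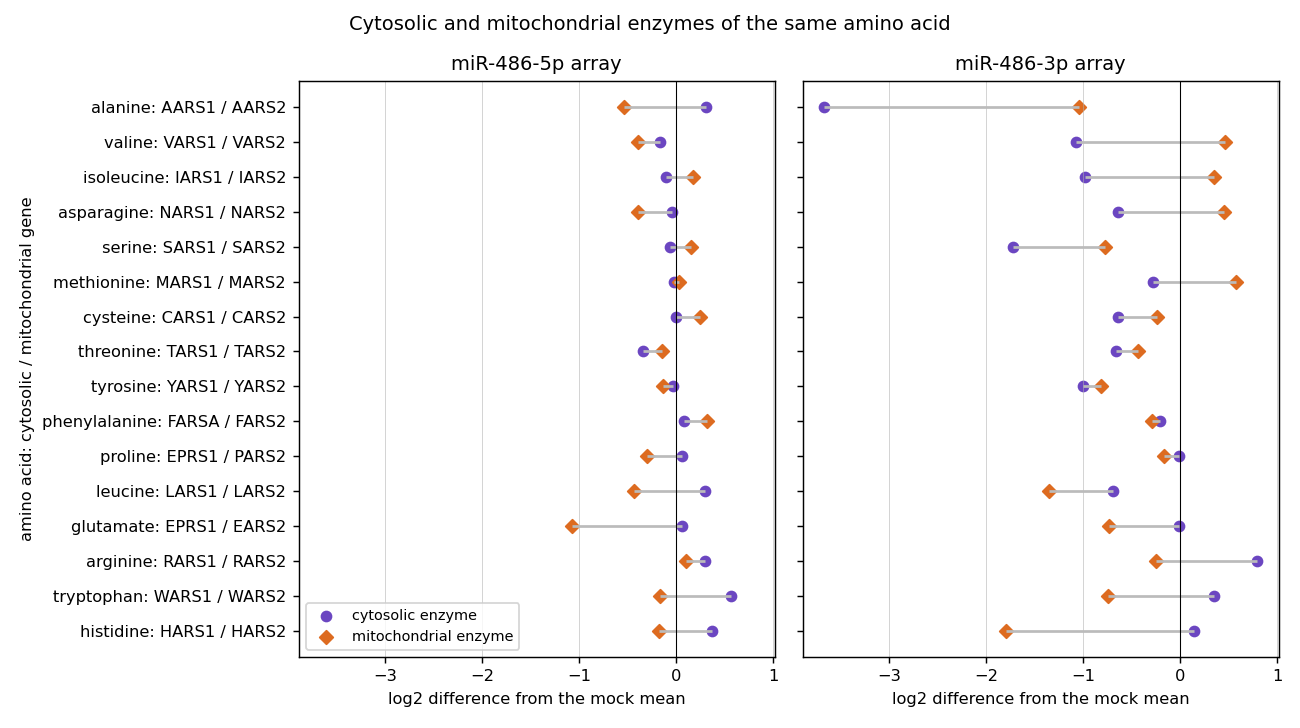
Log2 difference from the mock mean of the cytosolic (circle) and mitochondrial (diamond) enzyme gene of each amino acid, on the 5p array (left) and the 3p array (right), with 1 array each and a line joining the pair. On the right, the valine genes stand at −1.08 and 0.46 and the histidine genes at 0.15 and −1.80.

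Set against the composite element, all 6 cytosolic genes with the element in the promoter window were called lower after the 3p strand, from −3.67 for *AARS1* to −0.28 for *MARS1*, with a median of −0.65. Of the 9 measured cytosolic genes whose window lacked it, 2 were called lower (*SARS1* and *GARS1*) and 1 higher, with a median of −0.01. The 3 cytosolic genes for which no window was read, *LARS1*, *VARS1* and *YARS1*, were all called lower, with a median of −0.999, and 30.8% of all genes were called lower. On the 5p array, the medians were −0.03 with the element and 0.12 without it. *YARS2*, the mitochondrial gene with the element, was called lower at −0.82, and of the 13 mitochondrial genes without it 6 were called lower. These counts are small and were made with the calls known, and the element is shown because of those calls. They are therefore only a description and no test is given. Whether *ATF4* has a part in these differences was not tested.

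After transfection of the 5p strand, far fewer synthetase genes were called. limma called 0 cytosolic genes in either direction and 1 mitochondrial gene lower, *EARS2*, where 6.64% of all genes were called lower and 3.55% higher. At an unadjusted p under 0.05 limma gave 6 cytosolic genes and 4 mitochondrial genes, where 47.6% of all genes passed on at least 1 probe. The study's Student comparison gave 4 cytosolic and 8 mitochondrial genes without adjustment, where 25.5% of all genes passed, and 0 with it. The 5p calls depend on the fit: with an intensity trend in limma, 5 cytosolic genes were called lower and 5 higher, and 5 mitochondrial genes lower and 1 higher, where 24.5% of all genes were called lower and 21.8% higher. The medians were 0.03 for cytosolic and −0.16 for mitochondrial genes, beside 0.03 for all genes, and the cytosolic median was −0.0491 under median scaling and −0.0320 under normexp.

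*EARS2*, the mitochondrial glutamate enzyme, which charges both tRNAs for glutamate and, for later amidation, those for glutamine, was the gene farthest from the mock arrays after the 5p strand. It was −1.19 on the 5p array, −0.84 on the 3p array and −0.14 and −0.08 on the mock arrays, with a 5p difference of −1.08 (SE 0.0917, limma adjusted p = 0.0475). Both transfected arrays were below both mock arrays. The call was lost with the authors' log2 values and when dim probes were kept in the fit.

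The other genes far from the mock arrays were *WARS1* at 0.57 (SE 0.0876, limma adjusted p = 0.0601) and *AARS2* at −0.54 (SE 0.0874, limma adjusted p = 0.0633), which with *EARS2* were the 3 genes past 0.5, where 15.9% of all genes were lower and 13.8% higher. Next came *KARS1* at −0.46 (limma adjusted p = 0.0781), *LARS2* at −0.43 (0.0794), *VARS2* at −0.40 (0.0902) and *NARS2* at −0.40 (0.146), none of which passed limma. On the upper side, *HARS1* was at 0.37, *FARS2* at 0.32, *AARS1* at 0.31 and *LARS1* and *RARS1* at 0.30. *AARS1* and *LARS1* thus stood above both mock arrays after the 5p strand and below both after the 3p strand. The same held for *GARS1*, *FARSA*, *CARS2*, *FARS2*, *RARS2* and *SARS2*, and none of these genes passed limma after the 5p strand.

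The strands were also compared directly, as the 3p array minus the 5p array. limma called 8 cytosolic genes lower and 1 higher and 7 mitochondrial genes lower and 2 higher, 18 of 34 in all, where 26.7% of all genes were called lower and 26.2% higher, 52.9% together. Among the genes called in this comparison, *CARS2*, *FARS2* and *NARS2* were not called against mock after either strand. *EARS2* did not pass the direct comparison at 0.35 (SE 0.106, limma adjusted p = 0.0942), so its smaller distance from mock after the 3p strand is not shown to differ from that after the 5p strand.

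The other genes of charging and of the amino acid response were read from lists drawn up by name, also with earlier results of these data known. Of 28 genes listed for *ATF4* and its amino acid response targets, with synthetases left out, 27 were tested, and 22 were called lower and 1 higher after the 3p strand, with a median of −1.13, where 30.8% of all genes were called lower and 31.3% higher. The largest falls were of *SLC7A5*, a transporter of large neutral amino acids, at −3.92, *CHAC1*, which breaks down glutathione, at −3.34, *PSAT1* of serine synthesis at −2.38 and *TRIB3* at −2.33. *ATF4* itself was at −0.58 (limma adjusted p = 0.0264), and *ASNS*, the asparagine synthetase, at −2.06. *VLDLR* was the gene called higher, at 0.33, and 1 of its 2 probes passed the filter on dim signal only through the 3p array. After the 5p strand, 5 of the list were called lower, where 6.64% of all genes were: *DDIT4* at −3.06, *STC2* at −1.95, *CHAC1* at −1.31, *NUPR1* at −1.07 and *ATF4* at −0.90. In the RefSeq promoter windows, 5 of 20 genes of this list held the composite element (25.0%).

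**Figure D3:**
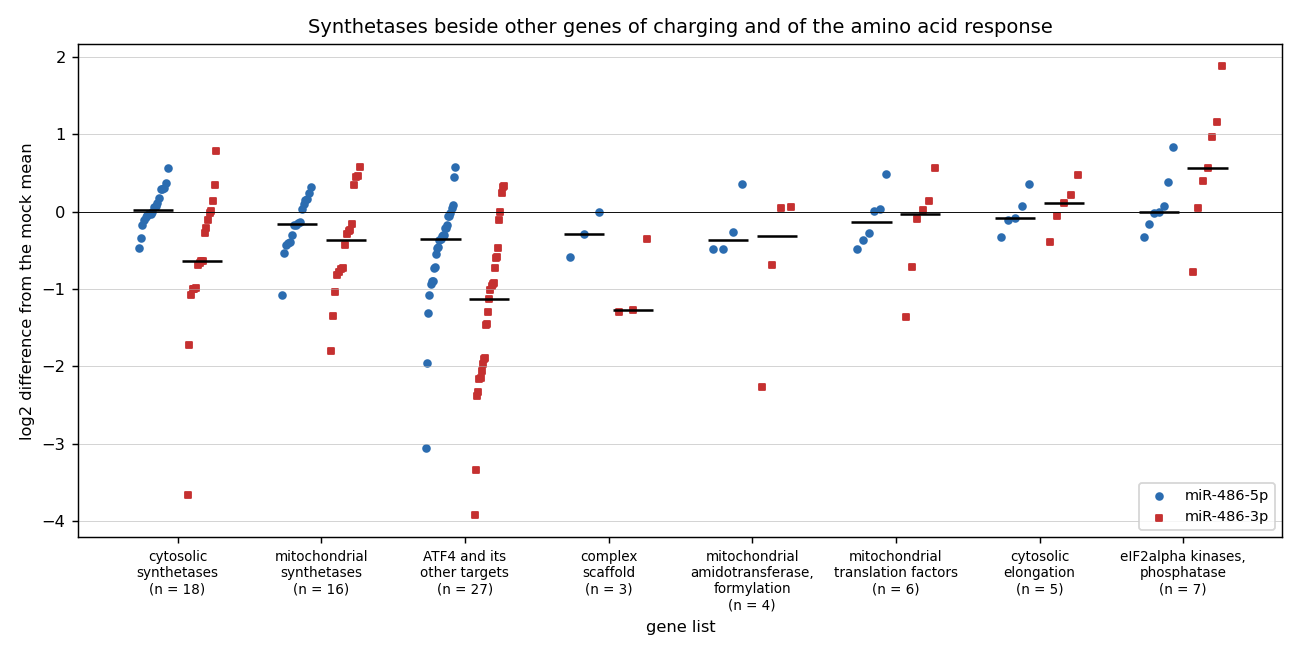
Log2 differences from the mock mean for the synthetases and the other gene lists, with circles for the 5p array, squares for the 3p array and a black line at each median (1 array per strand; n is the number of genes measured). The median of the ATF4 list was −1.13 after the 3p strand, below those of the cytosolic (−0.64) and mitochondrial (−0.36) synthetases.

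Among the scaffold proteins of the multisynthetase complex, *AIMP2* was called lower at −1.29 and *EEF1E1* at −1.27 after the 3p strand, while *AIMP1* at −0.35 did not pass limma (adjusted p = 0.0796). On the 5p array the differences were −0.29, −0.59 and 0.00, and none passed limma. Of 4 genes for the mitochondrial amidotransferase that makes glutaminyl-tRNA and for formylation of the initiator, *GATC* was called lower at −2.26 and *MTFMT* at −0.68 after the 3p strand. *QRSL1*, the catalytic subunit, was called higher after the 3p strand through 1 of its 2 probes, with a mean of 0.06, and lower after the 5p strand at −0.49. *GATB* was not called after either strand. Among all genes, 30.8% were called lower and 31.3% higher after the 3p strand, and 6.64% and 3.55% after the 5p strand.

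Downstream of charging, *TUFM*, the mitochondrial elongation factor that brings charged tRNA to the ribosome, was called lower at −1.36 and *MTIF3*, an initiation factor, at −0.72 after the 3p strand, and *GFM2*, a ribosome recycling factor, higher at 0.57, of 6 genes. Of 5 cytosolic elongation factor genes, *EEF1D* was called higher at 0.47 and no other was called. Of the 3 measured synthetase-like and editing proteins, *TARS3* was called higher at 0.56 and *DTD1*, which removes D-amino acids from tRNA, lower at −0.79. For all 3 lists, the shares among all genes were 30.8% called lower and 31.3% higher after the 3p strand.

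The kinases and phosphatase subunits that act on eIF2α set the translation of *ATF4*. After the 3p strand, the kinase gene *EIF2AK3* was called higher at 1.88 and *EIF2AK2* at 0.56, the phosphatase subunits *PPP1R15A* at 1.16 and *PPP1R15B* at 0.97, and the kinase gene *EIF2AK1* lower at −0.78, of 7 genes. The 7 include *EIF2S1*, which encodes eIF2α itself, was at 0.39 and was not called. Of all genes, 30.8% were called lower and 31.3% higher. *EIF2AK4*, which encodes the kinase that senses uncharged tRNA, was at 0.05 and was not called. Of 10 listed interferon gamma response genes, a list that stands beside *WARS1*, 8 were tested, since *GBP1* and *CXCL10* were too dim. After the 3p strand 6 were called higher, *IRF1* at 1.44 and *B2M* at 1.15 among them, where 31.3% of all genes were called higher. The 6 include *GBP2*, which passed the filter on dim signal only through the 3p array, so its call follows in part from the filter.

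By the fold of the catalytic domain, another grouping drawn up afterwards, 10 of 18 class I genes were called lower and 2 higher after the 3p strand and 9 of 15 measured class II genes lower, beside 30.8% lower and 31.3% higher among all genes. The medians were −0.46 for class I and −0.64 for class II. Whether the classes differ was not tested.

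Scaling set the zero of all these values. The median over all probes in the fit was 0.13 after the 3p strand with scaling to the 75th percentile and −0.25 with scaling to the median, which lowered every 3p difference by the same amount. With median scaling, 13 cytosolic and 12 mitochondrial genes were called lower and none higher, beside 7465 lower (44.8%) and 3307 higher (19.8%) of all genes. Across the settings, 9 of 34 genes changed sign after the 3p strand, and none of these had been called. With the authors' own log2 values, *AARS1* was at −3.76, *HARS2* at −1.75 and *RARS1* at 1.05.

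**Figure D4:**
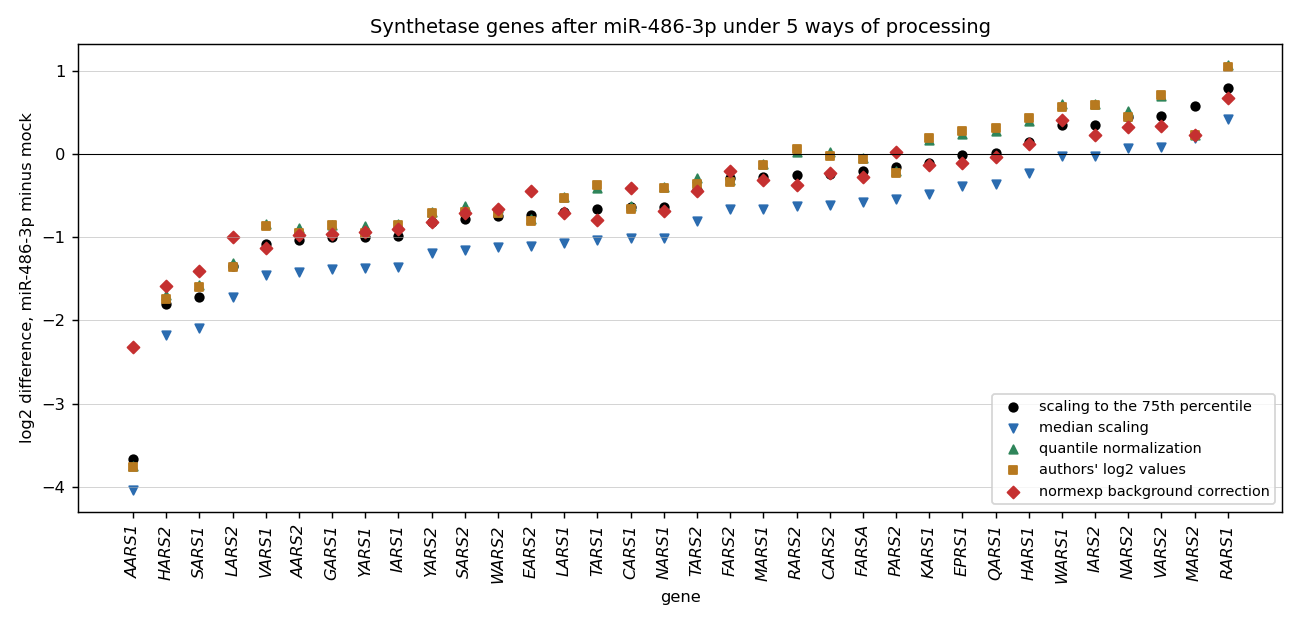
Log2 difference of the 3p array from the mock mean for each synthetase gene under 5 ways of processing, in the order of the values scaled to the 75th percentile (black circles). Median scaling (triangles pointing down) lies below the other scalings throughout; AARS1 ranges from −4.04 to −2.32 and RARS1 stays above 0.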

How the data were processed

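The authors deposited, for each array, spot intensities from Agilent Feature Extraction 12.1.1.1, background-subtracted and spatially detrended per the file headers, and a log2 table with the same quartiles in each array's column. The scanner signal was the basis here and the authors' log2 values an alternative. The normalization behind the authors' table is not given in the sources used here. On each array, the log2 of the processed signal was taken and the 75th percentile of all non-control spots subtracted, spots marked as outliers (50 to 72 per array) were left out, and the spots of a probe were averaged. Array annotation used hg19, so GRCh38.p14 RefSeq served for gene names and promoter sequences only. Of 33080 probes with a RefSeq accession, 31104 matched a gene. Of 58201 probes, 30690 to 31516 were well above background on an array, and no spot was saturated. The number of arrays limits the precision. All arrays came from 1 slide and 1 scan.

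limma 3.58.1 (R 4.3.3) was fitted to 33498 probes well above background on every array of at least 1 group. It had 1 residual degree of freedom and a prior of 1.75 with an SD of 0.0893. Its mean estimates were checked on data simulated with the same spread on every array. That simulation cannot show whether a transfected array varies as the mock arrays do. A gene's difference is the mean over its probes. Full values were given for a gene among the 5 lowest or 5 highest of the set after a strand, or for its partner enzyme, and for at most 4 called genes of each other list, with a few added after their values were seen (*ATF4*, *ASNS*, *EIF2AK4*, *GATB*, *VLDLR*). The members and lists were chosen with earlier results of these data known. Alternatives were other scalings, the authors' values, normexp (offset 50, on the median signal), other probe filters, the brightest probe, an intensity trend, gene means, a limit of 1, each mock array left out, and the Student comparison of the study's methods. The values of 1 further marker gene are not reported here.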

Additional observations from a re-analysis of the deposited data

Results flagged for a closer look

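The effects of the strands differed by limma's direct comparison, as the 3p array minus the 5p array, for 18 of the 34 measured synthetase genes (52.9%), the same share as over all genes (52.9%, of which 26.7% lower and 26.2% higher), so the count is not a result about the synthetases. Among cytosolic genes the difference was −3.97 for *AARS1*, −1.65 for *SARS1*, −1.19 for *GARS1*, −0.99 for *LARS1*, −0.97 for *YARS1*, −0.90 for *VARS1*, −0.87 for *IARS1* and −0.60 for *NARS1*, and it was 0.49 for *RARS1*. Among mitochondrial genes it was −1.62 for *HARS2*, −0.93 for *SARS2*, −0.91 for *LARS2*, −0.68 for *YARS2*, −0.61 for *FARS2*, −0.50 for *AARS2* and −0.49 for *CARS2*, and it was 0.86 for *VARS2* and 0.85 for *NARS2*. The *SARS1* value rests on the noncoding transcript's probe, at −2.89, since the coding transcript's probe was at −0.42 (limma adjusted p = 0.0657). Each strand has 1 array, so these differences have no replicate check.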

How the results depend on the processing

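The direction of every called synthetase difference was kept under all alternatives run. Of the calls after the 3p strand, 8 of 11 cytosolic and 6 of 8 mitochondrial genes called lower were called lower in all 9 other limma settings, and neither *RARS1* nor *VARS2* was called higher in all of them. Counts below are given as cytosolic and mitochondrial genes, C and M. Median scaling gave, after the 3p strand, 0 C and 0 M called higher, 12 M lower past 0.5 and none higher, and medians of −1.01 (C) and −0.73 (M). After the 5p strand it gave 1 C lower and 0 C higher past 0.5 and medians of −0.0491 (C, a reversed sign) and −0.23 (M), and between the strands 0 C and 1 M higher. Its shares of all genes called higher were 19.8% after 3p and 18.6% between strands. Quantile normalization gave 3 C and 2 M called higher after 3p, 2 C higher between strands, 2 C and 3 M higher past 0.5 after 3p, and medians of −0.40 (C) and −0.30 (M) after 3p and 0.0598 (C) and −0.12 (M) after 5p. The all-gene shares called higher were then 31.8% after 3p and 27.6% between strands. The authors' log2 values gave 0 M called lower after 5p, 3 C and 2 M higher after 3p, 2 C and 1 M higher between strands, 2 C and 2 M higher past 0.5, and medians of −0.39 (C) and −0.35 (M) after 3p and 0.04 (C) and −0.15 (M) after 5p. With those values, 0% of all genes were called lower after 5p, 28.2% higher after 3p and 24.2% higher between strands. Normexp gave, after 5p, 6 C and 4 M called lower and 5 C and 1 M higher, 1 C lower past 0.5, and medians of −0.0320 (C, a reversed sign) and −0.17 (M). After 3p it gave 2 C and 4 M higher, 0 M higher past 0.5, and medians of −0.55 (C) and −0.40 (M), and between strands 2 C higher. Over all genes, normexp called 22.7% lower and 21.9% higher after 5p, 44.7% higher after 3p and 34.5% higher between strands. With no filter on dim probes, 0 M were called lower after 5p, 0 M higher after 3p, and between strands 3 M lower and 0 C and 1 M higher. All-gene shares in that fit were 0% lower after 5p, 20.1% higher after 3p, and 13.7% lower and 14% higher between strands. With probes above background on all 4 arrays, 1 C and 4 M were lower and 1 C higher after 5p, and 2 C and 3 M higher after 3p. Of all genes in that fit, 20.5% were lower and 17.7% higher after 5p, and 34.7% higher after 3p. With an intensity trend, 5 C and 5 M were lower and 5 C and 1 M higher after 5p, 2 C and 3 M higher after 3p, and between strands 14 C lower and 2 C higher. There, 24.5% of all genes were lower and 21.8% higher after 5p, 37.2% higher after 3p, and 33.9% lower and 33.8% higher between strands. On gene means, 1 C and 4 M were lower and 1 C higher after 5p, and 2 C and 3 M higher after 3p. This fit called 16.9% of all genes lower and 13.5% higher after 5p, and 33.6% higher after 3p. The Student comparison after adjustment gave 0 in both compartments, directions and all 3 comparisons. Without adjustment it gave 2 C and 5 M lower and 2 C and 3 M higher after 5p, 7 C lower and 2 C and 2 M higher after 3p, and 0 C higher between strands. Its all-gene shares were then 13.6% lower and 11.9% higher after 5p, 22.6% and 19.1% after 3p, and 17.2% higher between strands. A limit of 1 left 1 M lower and 0 C higher after 5p, and 4 C and 3 M lower and 0 C and 0 M higher after 3p. Leaving out either mock array moved the medians within −0.67 to −0.58 (C) and −0.38 to −0.34 (M) after 3p and 0.0523 to 0.0541 (C) and −0.16 to −0.15 (M) after 5p. Without mock replicate 1, 0 M were higher past 0.5 after 3p, and without mock replicate 2 there were 2, *MARS2* and *NARS2* being the genes near that limit. The cause of these shifts was not tested, except that median scaling subtracts one constant per array. The ATF4 list held 19 to 23 genes called lower after 3p in the limma settings and 0 after the adjusted Student comparison, and 0 to 19 lower after 5p. The limma settings called 18% to 44.8% of all genes lower after 3p and 0% to 24.5% after 5p.

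No paired analysis was possible because each strand has 1 array and no replicate number pairs it with a mock array. With 1 mock array removed, no residual degree of freedom is left for limma, so that fit has no value, and a slide block was not run since there was 1 slide. Few arrays, the pooled spread and 1 probe for most genes limit every call.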
